A study of Mus musculus with 6 samples.

Results

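Transcripts of the contractile proteins of visceral smooth muscle were measured in the lining of the stomach of Lasp1 knockout and wild type mice. The members are 10 genes taken by symbol from the platform annotation or the current gene table, and they were read by 25 of the 45281 probes on the array. They were Acta2, Actg2, Tpm2, Cnn1, Tagln, Smtn, Myh11, Myl9, Mylk and Des. Total RNA from fundic gastric mucosa of C57Bl/6Ncr mice aged 3 months was labelled with biotin and read on 6 Illumina arrays, 3 from Lasp1 knockout mice and 3 from wild type mice. All 6 samples share strain, age and tissue, and the labels name no treatment and no detail of the deletion. Lasp1 encodes LIM and SH3 protein 1, which binds actin filaments, and no protein was measured. Nothing in the labels states whether the arrays of a genotype came from separate mice, so the spread behind each p-value may be technical.

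Smooth muscle contracts when calcium and calmodulin switch on myosin light chain kinase, which phosphorylates the regulatory light chain and lets smooth muscle myosin pull on filaments of smooth muscle actin. Desmin filaments and actin-binding proteins carry the force through the cell. In the stomach such cells form the thick outer muscle coat, the thin muscle sheet at the base of the mucosa and the walls of vessels. In bulk tissue, fewer muscle cells and less RNA per cell cannot be told apart.

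The authors' values are linear probe intensities with a median of 1000 on every array, and no background had been subtracted. The brightest of 26 probes of Y-linked genes read 1061 to 1212, depending on the array, near the array median, and is used here as a level of no signal. The labels give no sex. Between 35.8% of probes (wild type replicate 3) and 45.8% (knockout replicate 1) lay above it. Lasp1 read 88521, 111002 and 89823 on knockout replicates 1 to 3, against 270957, 275068 and 177315 on wild type replicates 1 to 3. The log2 difference was -1.30 (SE 0.21, limma unadjusted p = 0.000412, adjusted p = 0.994). The targeted gene itself thus did not pass, so not passing does not show that a gene is unchanged. Lasp1 signal in the knockout was 40.6% of wild type and far above the Y-linked level, and its source was not tested. Several arrays carried transcripts of neighbouring tissues. Summed over 12 squamous epithelium markers, intensities were 1221670 on knockout replicate 1 and 694037 on wild type replicate 2, and 23818 to 43012 on the other 4 arrays. Summed over 12 pancreatic acinar markers they were 6879730 on wild type replicate 3, 1106960 on knockout replicate 3 and 684747 to 749254 elsewhere. The marker Clps alone made up 513831 to 635559 of these sums on every array, so they understate the contrast of the other markers. Genotype results are therefore given with and without knockout replicate 1, and without wild type replicate 3 where that matters. The 14 gastric gland markers summed to between 3928630 and 4148580 on the knockout arrays and between 3858120 and 3942410 on the wild type arrays. These sums rest mostly on the brightest probes and do not show that each marker was even. Gast, from that list, read 5003, 21207 and 861 on the knockout arrays, against 43741, 35100 and 1354 on the wild type arrays. The source of that spread was not tested.

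The contractile genes set 1 array apart. All 9 members with a probe that passed the filter on dim probes were brightest on knockout replicate 1, and all 9 were second brightest on wild type replicate 1. Over all 22640 probes that passed the filter, 26.4% were brightest on knockout replicate 1 and 25.6% were second brightest on wild type replicate 1. Knockout replicate 1 exceeded the highest of the other 5 arrays by at least 2-fold for 8 of the 9, against 0.707% of all probes. That array had been singled out with its muscle transcripts known, so these counts describe it and are not tests. The filter on dim probes used that array too, so probes bright there alone could enter the shares of all probes. Wild type replicate 3 was the lowest array for 7 of the 9, but it was the lowest for 64.9% of all probes too.

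The 2 smooth muscle actins form the thin filaments. Acta2, the alpha actin of smooth muscle, is also the actin of vessel walls and of contractile fibroblasts. Its brightest probe read 169728, 47962 and 35252 on knockout replicates 1 to 3, against 85098, 48411 and 26433 on wild type replicates 1 to 3. Knockout replicate 1 stood above every other array and the remaining knockout arrays lay inside the wild type range, so the groups overlapped. The means were 84314 ± 74243 in the knockout and 53314 ± 29638 in wild type mucosa (SD, n = 3 each). Actg2, the gamma actin found mainly in the muscle of the gut and other hollow organs, read 27747, 5123 and 2994 on the knockout arrays, against 8345, 5138 and 3564 on the wild type arrays. Knockout replicate 1 was 3.33-fold above the next array for Actg2 and 1.99-fold above it for Acta2, and knockout replicate 3 was the lowest of all for Actg2.

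The promoters of Acta2 and Myl9 are shown. Among the members searched, only these held a serum response factor site, the CArG box, or a near match to one. A CArG box is a run of 6 A or T bases between CC and GG, read alike on both strands, and a near match here allows 1 other base in that run. The sequences are the 250 bases before the RefSeq start of each gene (GRCm38.p6, 5′ to 3′ on the gene's own strand), with matches in capitals. Acta2 lies on the minus strand (chr19:34255374-34255623) and Myl9, the regulatory light chain of smooth muscle myosin, on the plus strand (chr2:156775214-156775463).
Acta2: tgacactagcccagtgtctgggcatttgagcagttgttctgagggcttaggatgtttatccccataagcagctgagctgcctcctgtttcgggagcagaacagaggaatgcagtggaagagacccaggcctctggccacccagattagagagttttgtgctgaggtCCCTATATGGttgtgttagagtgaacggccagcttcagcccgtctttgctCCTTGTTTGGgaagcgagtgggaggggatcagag
Myl9: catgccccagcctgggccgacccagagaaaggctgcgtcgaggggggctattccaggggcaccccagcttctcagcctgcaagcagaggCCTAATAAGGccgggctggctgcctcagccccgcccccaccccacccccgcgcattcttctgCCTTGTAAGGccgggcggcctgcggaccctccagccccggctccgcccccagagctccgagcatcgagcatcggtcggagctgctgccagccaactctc
Acta2 held 2 near matches and no full box. Myl9 held 1 full box, from base -161 to base -152 before the start, and 1 near match closer to the start. Of the 10 members, 7 matched the promoter table, while Actg2, Myh11 and Tagln had no entry and were not searched. Of the 7 searched, 1 held a full box and 2 held a box or a near match. Among all 32851 promoters of that table, 1.47% held a full box and 8.59% held either, and no match says only that these letters are not in this window.

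Transcripts of the proteins bound along the actin filament, other than Cnn1, followed the same arrays. Tpm2, the beta tropomyosin, read 24704, 8218 and 8229 on the knockout arrays, against 9420, 7936 and 4972 on the wild type arrays. Knockout replicate 1 was 2.62-fold above the next array, and both remaining knockout arrays lay between wild type replicates 1 and 3. Smtn, which encodes smoothelin, a marker of fully contractile smooth muscle cells, read 18485, 7118 and 4990 in the knockout, against 7615, 6010 and 3533 in wild type mucosa. Tagln, which encodes transgelin, an early marker of the smooth muscle lineage, was dim, at 2911, 1118 and 944 on the knockout arrays, against 1212, 1211 and 1084 on the wild type arrays. Its brightest probe cleared the Y-linked level on 3 of 6 arrays, so its differences are understated. Cnn1, the calponin of smooth muscle, was not above background on any array (960, 984 and 1052 in the knockout, against 975, 969 and 968 in wild type), and nothing can be said of its level.

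**Figure D1:**
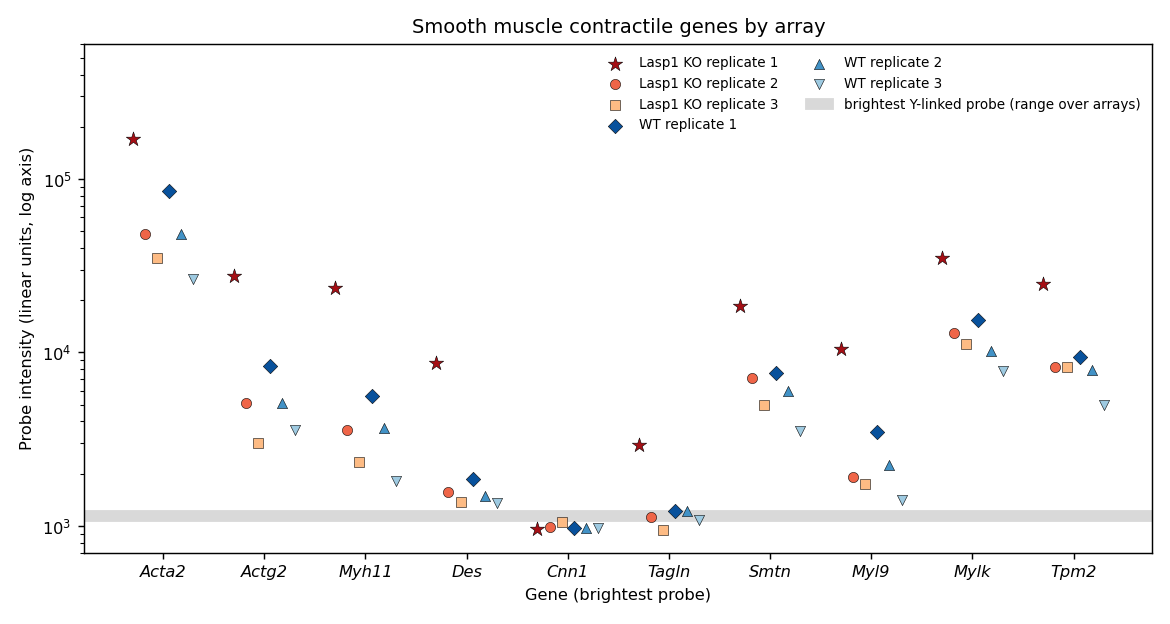
Intensity of the brightest probe of each of the 10 contractile genes on each array, on a log axis; each point is 1 array, and the grey band spans the brightest Y-linked probe over the arrays. Knockout replicate 1 (star) is highest for 9 genes and wild type replicate 1 (diamond) is next, while Cnn1 lies below the band on all 6 arrays. Heights of different genes cannot be compared, because each probe has its own response.

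The myosin motor, its switch and the desmin filaments came next in the order of roles. Myh11, the smooth muscle myosin heavy chain, read 23458, 3571 and 2330 on the knockout arrays, against 5590, 3645 and 1806 on the wild type arrays. Knockout replicate 1 was 4.2-fold above wild type replicate 1, and knockout replicates 2 and 3 both lay within the wild type range. Myl9 read 10419, 1910 and 1740 in the knockout, against 3495, 2232 and 1414 in wild type mucosa, with the same order of arrays. Mylk, the kinase that phosphorylates this light chain, read 34911, 13021 and 11237 in the knockout, against 15394, 10184 and 7807 in wild type mucosa. The kinase is also made outside muscle, and it was 2.27-fold higher on knockout replicate 1 than on the next array. Des, the intermediate filament protein desmin, read 8686, 1559 and 1368 in the knockout, against 1860, 1483 and 1358 in wild type mucosa. The 5 other arrays were closely grouped for Des, with a range of 0.45 on the log2 scale, and knockout replicate 1 was 4.67-fold above the highest of them.

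The size of the excess on knockout replicate 1 differed among the members. Relative to the median of the other 5 arrays it was 6.57-fold for Myh11, 5.86-fold for Des, 5.45-fold for Myl9 and 5.42-fold for Actg2. It was 3.54-fold for Acta2, 3.11-fold for Mylk, 3.08-fold for Smtn, 3.01-fold for Tpm2 and 2.60-fold for Tagln. After background correction with normexp and quantile normalization, Des (7.54-fold) passed Myh11 (7.28-fold), Tagln reached 3.76-fold, and Mylk, Smtn and Tpm2 were the lowest, at 2.87-fold to 2.90-fold. No test of these differences among members was made, since all rest on 1 array.

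Where a gene had several probes, the bright ones followed one another. The 4 Acta2 probes that passed the filter gave knockout replicate 1 an excess of 2.85-fold to 6.19-fold over the median of the other arrays, and the 3 Mylk probes gave 2.75-fold to 3.11-fold. Smtn had 2 such probes at 2.85-fold and 3.08-fold and a dim one at 1.34-fold. The second Tagln probe disagreed with the first: it was highest on wild type replicate 1 (1459) and gave 1.09-fold. Of all 25 member probes, 17 passed the filter and knockout replicate 1 was the highest array for 16 of them. All 4 probes annotated to a cDNA clone rather than to a RefSeq mRNA failed the filter, and 17 of the 21 annotated to a RefSeq mRNA passed it.

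The arrays can be ordered by the mean of the 9 members, each centred on its own mean over the 6 arrays. On this log2 scale knockout replicate 1 stood at 1.73 ± 0.43 (SD over 9 genes), wild type replicate 1 at 0.21 ± 0.25, knockout replicate 2 at -0.23 ± 0.16, wild type replicate 2 at -0.27 ± 0.11, knockout replicate 3 at -0.58 ± 0.29 and wild type replicate 3 at -0.85 ± 0.29. After quantile normalization the 2 lowest arrays changed places, at -0.56 ± 0.28 for knockout replicate 3 and -0.52 ± 0.23 for wild type replicate 3. The distance of knockout replicate 1 from the rest remained, at 1.57 ± 0.43.

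Between genotypes, no contractile gene differed beyond the spread between replicates. With all 6 arrays the 9 genes were higher in the knockout by 0.32 (Tagln) to 0.80 (Myh11) on the log2 scale, with a median of 0.67, where the median over all tested probes was 0.10. Standard errors ran from 0.40 to 0.87. None passed limma (adjusted p = 0.994 for each, as for Lasp1 itself), none had an unadjusted p under 0.05, and for none were the groups separate. Among all 22640 probes 0.00883% passed, 1.73% had an unadjusted p under 0.05, the knockout arrays were all above the wild type arrays for 6.17% and all below them for 1.02%. Exact two-sided permutation tests gave p = 0.4 to 0.9, where 3 against 3 arrays cannot go below 0.1.

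Without knockout replicate 1 the direction turned for most members. That array was the highest for all 9 genes, so leaving it out could only lower each difference, and the turn is not a genotype result. The log2 difference, 2 knockout against 3 wild type arrays, was -0.45 (SE 0.41) for Actg2, -0.29 (SE 0.37) for Myl9, -0.22 (SE 0.48) for Acta2, -0.21 (SE 0.49) for Myh11, -0.18 (SE 0.15) for Tagln and -0.09 (SE 0.18) for Des. It stayed positive for Smtn (0.13, SE 0.35), Mylk (0.18, SE 0.30) and Tpm2 (0.19, SE 0.28). The median of the 9 was -0.18, against 0.07 over all probes. None passed limma (adjusted p = 1.0 for each) and none had an unadjusted p under 0.05, where 0% and 4.48% of all probes did. The groups overlapped for all 9 genes, while 17.4% of all probes had both knockout arrays above and 3.6% had both below every wild type array. Exact permutation p ran from 0.4 to 1, with 0.2 the smallest that 2 against 3 arrays allow. Without both knockout replicate 1 and wild type replicate 3 all 9 differences were below 0, with no limma adjusted p below 0.336. Their median was -0.24, against -0.03 over all probes. This fit drops the highest knockout array and the lowest wild type array of each gene. That alone lowers every difference, so the shared sign is no separate result.

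**Figure D2:**
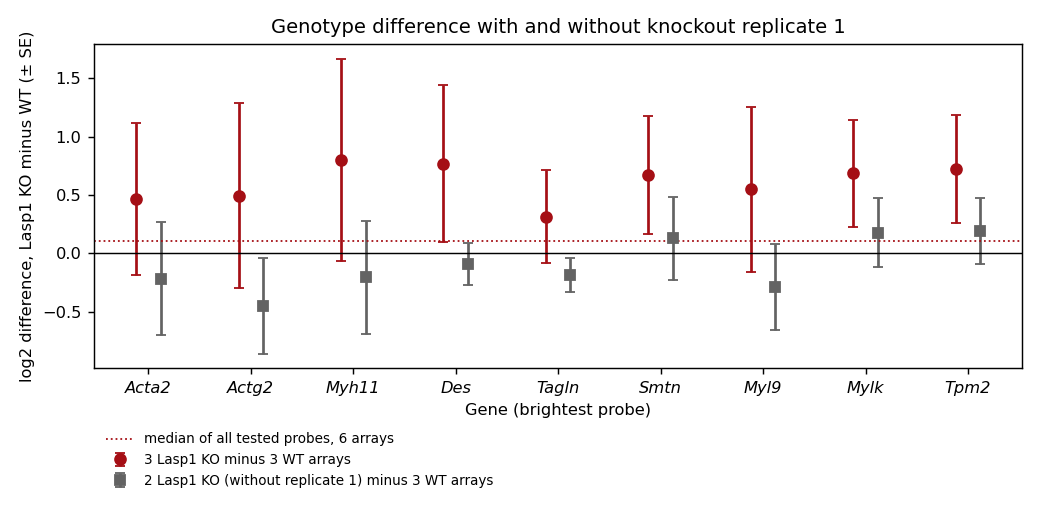
The log2 difference, knockout minus wild type, of the 9 contractile genes that passed the filter, with all 6 arrays (red circles) and without knockout replicate 1 (grey squares); bars are limma standard errors and the dotted line is the median of all tested probes. With all arrays the values run from 0.32 to 0.80, and without knockout replicate 1 they run from -0.45 to 0.19. That array was the highest for all 9 genes, so leaving it out lowers every value.

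The labels do not give the meaning of the number in the sample titles. A split into titles 1 to 3 and 4 to 6, which was chosen here and not taken from the labels, bears on this result. Knockout replicate 1 and wild type replicates 1 and 2 carry titles 1 to 3, and the other arrays carry 4 to 6. With that split as a block, the median difference of the members was 1.11 on the log2 scale and 8 of the 9 had an unadjusted p under 0.05, as did 12% of all probes. None passed after adjustment (limma adjusted p = 0.399 for each), and 0.0133% of all probes did. Within titles 1 to 3 the difference was positive for all 9 genes, with a median of 1.51 (0.04 over all probes), and rests on knockout replicate 1 as the only knockout array. Within titles 4 to 6 the median was 0.63 (0.29 over all probes), with Tagln at -0.08, and rests on wild type replicate 3 as the only wild type array.

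Part of the wider set of smooth muscle genes was also brightest on knockout replicate 1. Over 30 tested genes of the wider smooth muscle list, 20 were brightest on knockout replicate 1, where 26.4% of all probes were. With the filter on dim probes applied to the other 5 arrays alone, so that this array could admit no gene, it was 19 of 29. Over the 30, the median excess over the other arrays was 0.55 on the log2 scale, against 1.82 for the contractile members and 0.08 for all probes. Pdlim3, a Z-line protein, read 27485, 4825 and 3788 in the knockout, against 10407, 5996 and 2943 in wild type mucosa. Cald1, the actin-binding protein caldesmon, read 4282, 1095 and 1073 in the knockout, against 1366, 1184 and 1039 in wild type mucosa. It cleared the Y-linked level on knockout replicate 1 and wild type replicate 1 alone. Tpm1, a tropomyosin of many cell types from that list, was lower on knockout replicate 1 than on knockout replicate 2 and read 249149, 265353 and 234726 in the knockout, against 241545, 231962 and 142399 in wild type mucosa. None of the 30 passed the genotype test with or without knockout replicate 1, and their median differences were 0.17 and -0.04.

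Of 29 listed genes that regulate contraction, 15 passed the filter on dim probes. Pln and Ppp1r14a passed only through their values on knockout replicate 1, and of the 13 others 7 were brightest on that array. None of the 15 passed the genotype test in either fit. Pln, which encodes phospholamban, the brake on the calcium pump of the sarcoplasmic reticulum, read 2515 on knockout replicate 1 and stayed below the Y-linked level on every other array (925 and 1063 in the knockout, against 956, 903 and 1010 in wild type mucosa). Atp2a2, the pump itself, which is made in most cells, read 35187, 47926 and 42330 in the knockout, against 43484, 39466 and 22904 in wild type mucosa. It was thus lower on knockout replicate 1 than on the other knockout arrays.

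Relatives of the members from non-muscle cells and striated muscle had no such excess as a group. Among 16 tested relatives the median excess on knockout replicate 1 was 0.08 on the log2 scale, equal to that of all probes, and 4 were brightest there. Actb, the beta actin of all cells, read 205616, 255551 and 205808 in the knockout, against 207220, 232262 and 143000 in wild type mucosa. Myl6, a myosin light chain of muscle and non-muscle cells, read 199434, 270482 and 254637 in the knockout, against 206216, 197769 and 150566 in wild type mucosa. Knockout replicate 1 lay slightly below wild type replicate 1 for both. None of the relatives passed the genotype test, and their median difference was 0.20 with all arrays and 0.25 without knockout replicate 1.

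Other tissues that could be taken with the muscle were read from their markers. Endothelial markers were brightest on wild type replicate 1 for 8 of 9 genes and on knockout replicate 1 for 1, and their sums were 27661 to 37509 in the knockout, against 20454 to 51429 in wild type mucosa. Plvap, a protein of fenestrated endothelium, read 11372, 11277 and 10037 in the knockout, against 18546, 11525 and 6255 in wild type mucosa. Wild type replicate 1, the second brightest array for the contractile genes, was thus the brightest for most endothelial markers. The median log2 excess on that array was 0.49 for endothelial markers and 0.45 for the contractile members, against 0.12 over all probes. The share of all probes brightest there was not taken. Markers of vessel mural cells were brightest on knockout replicate 1 for 3 of 7 genes and on wild type replicate 1 for 3. Rgs5, a pericyte marker, read 2481, 1159 and 892 in the knockout, against 1818, 1557 and 1010 in wild type mucosa.

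Stroma, striated muscle and pacemaker cells were read from their markers too. Fibroblast markers summed to 98518 to 132155 in the knockout, against 88836 to 133671 in wild type mucosa. Of 11, 1 was brightest on knockout replicate 1 and 6 on wild type replicate 1, where their median log2 excess was 0.38. Of 17 striated muscle markers with a probe, 11 were never above the Y-linked level, among them Acta1, Ckm and Myh1. Tnni2, a fast skeletal troponin subunit, was well above it on every array, at 27621, 43877 and 33652 in the knockout, against 29499, 30023 and 17206 in wild type mucosa, and Mylpf and Actn2 were above it on all 6 arrays too. Markers of the interstitial cells of Cajal, which pace gut muscle, summed to 46618 to 55549 in the knockout, against 31502 to 56631 in wild type mucosa, and 1 of 4 was brightest on knockout replicate 1. Kit, the growth factor receptor on which these cells depend, is also made by mast cells, and Gpr20, Hcn4, Thbs4 and Edn3 were never above the Y-linked level.

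Enteric neurons and glia lie between muscle layers and in the submucosa. A few of their markers read above the Y-linked level on knockout replicate 1, where that level was lowest (1061). Vip, the neuropeptide vasoactive intestinal peptide, read 3694 on knockout replicate 1 and was at background on all others (866 and 794 in the knockout, against 788, 974 and 882 in wild type). Stmn2, a neuronal tubulin-binding protein, and Sox10, the transcription factor of enteric glia, cleared the Y-linked level on knockout replicate 1 and on no other array (1390 and 1207 there). Both failed the filter on dim probes and were only 1.47-fold and 1.20-fold above the next array. The Sox10 value lies below the Y-linked level of wild type replicate 3 (1212), so both are near background. The remaining markers did not follow: 8 of 12 were at background on every array, and Ret was brightest on knockout replicate 2 (1318). Vip passed the filter on dim probes only through knockout replicate 1.

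Squamous transcripts were high on knockout replicate 1, as the contractile genes were, but also on wild type replicate 2, where the contractile genes were not. Lor, which encodes the cornified envelope protein loricrin, read 399114, 3355 and 2027 in the knockout, against 10048, 274920 and 1759 in wild type mucosa. Squamous markers had a median log2 excess of 4.68 on knockout replicate 1 and 3.55 on wild type replicate 2, against 1.82 and 0.00 for the contractile members. Pancreatic markers were in excess on wild type replicate 3 (8.15) and knockout replicate 3 (2.03), the 2 arrays of lowest contractile levels (-0.73 and -0.36). The part of the neighbouring tissues in the contractile levels was not tested.

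**Figure D3:**
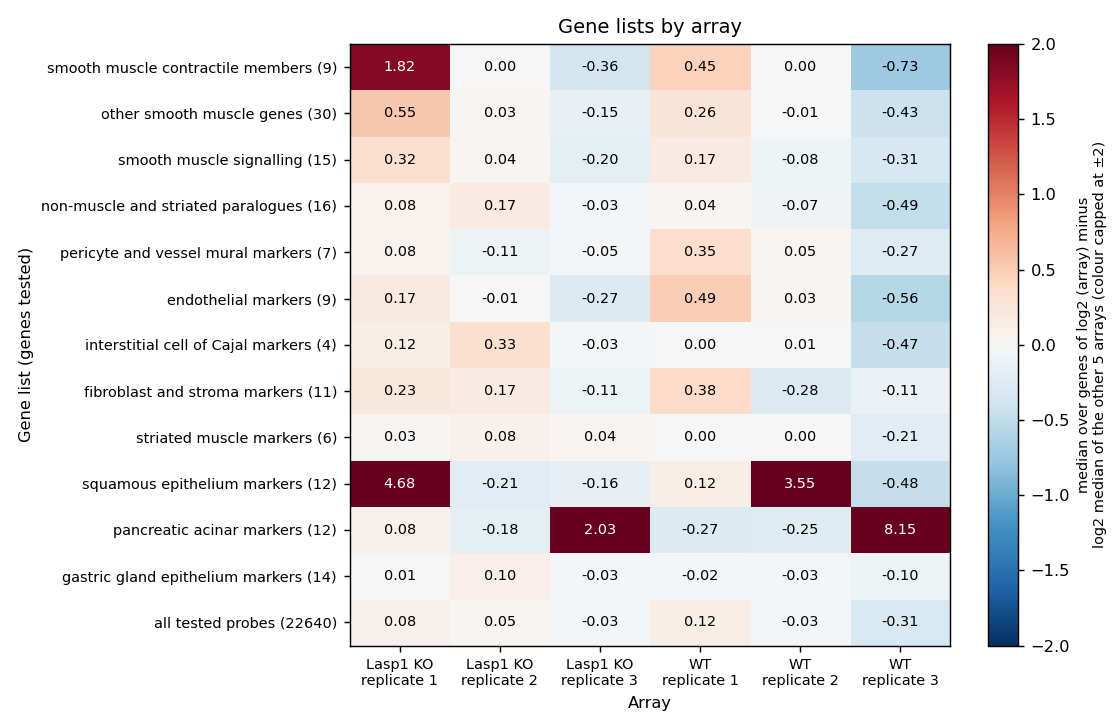
Median over the tested genes of each list of the log2 intensity on an array minus the log2 median of the other 5 arrays, with the number of genes in brackets and colours capped at 2 in both directions. The contractile members reach 1.82 on knockout replicate 1, squamous markers are high on knockout replicate 1 (4.68) and wild type replicate 2 (3.55), and endothelial markers peak on wild type replicate 1 (0.49).

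The genes whose profile over the 6 arrays was nearest to the mean profile of the members were found by the root mean square difference of centred log2 values. This likeness was measured for all other named genes that passed the filter and had a median of 0.77. The members lay at 0.16 to 0.37, which is partly built in, since their own values make up the mean profile. Nearest was Dmpk, the myotonic dystrophy kinase of muscle cells, at 0.16, which read 10487, 3081 and 2896 in the knockout, against 4276, 2749 and 2314 in wild type mucosa. Then came Ccdc3 (0.20), Cald1 (0.22), Inmt (0.28), the actin crosslinker Flna (0.29), Pdlim3 (0.30), Tns4 (0.31), the matrix protein gene Sparcl1 (0.33), the chromatin organiser Satb1 (0.33) and Mcam (0.33), an adhesion molecule of vessel walls. The lists of smooth muscle and mural genes already held 5 of these 10: Dmpk, Cald1, Flna, Pdlim3 and Mcam. Ccdc3 read 5306, 1369 and 1175 in the knockout, against 1621, 1654 and 1188 in wild type mucosa. All 10 were chosen for likeness to a profile dominated by knockout replicate 1, so their excess there (2.24-fold for Mcam to 5.70-fold for Pdlim3, over the median of the other arrays) describes the choice.

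**Figure D4:**
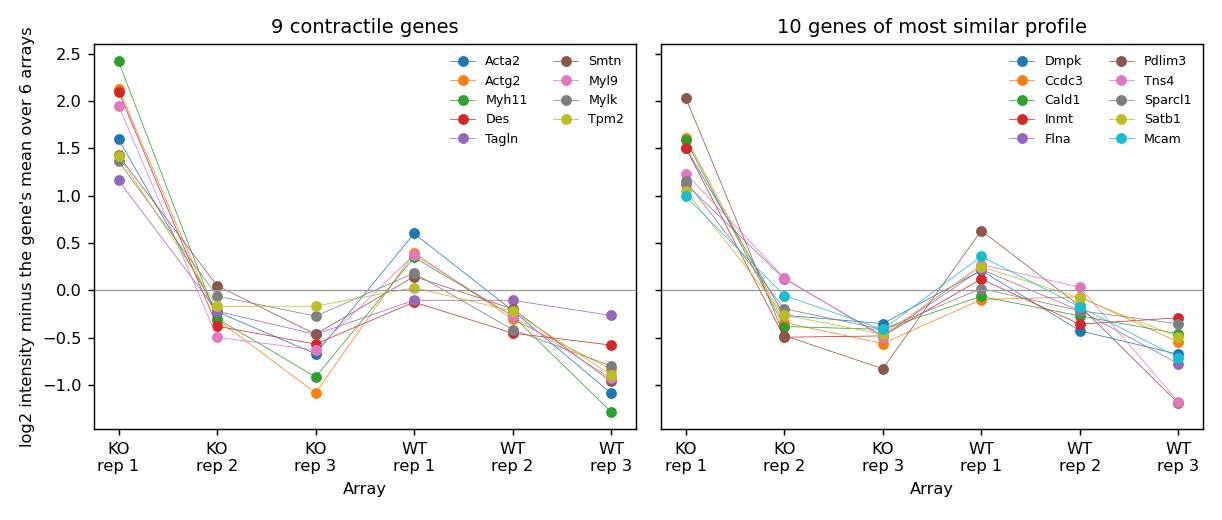
Log2 intensity minus the gene's own mean over the 6 arrays, for the 9 contractile genes that passed the filter (left) and the 10 genes nearest to their mean profile (right); thin lines join the points of 1 gene and imply no order of replicates. In both panels every gene is highest on knockout replicate 1, and on the left the members lie between 1.16 and 2.42 there.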

How the data were processed

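Intensities were used as the authors deposited them, 1 linear value per probe and array. From the values themselves, each array had been scaled to a median of 1000 and background was not subtracted, so folds of dim probes are understated. Per the labels' protocols, biotinylated cRNA was made with the Ambion MessageAmp kit. For the scanner, its software and its filters, the step is not given in the sources used here. Probes were named from the platform annotation (34885 with 1 symbol, 18 with several, 10378 with none), updated through the GRCm38.p6 gene table. Log2 values were tested for probes whose mean lay above that of the median probe (mean intensity 991, 22640 probes), by linear models with moderated variances (limma 3.58.1, R 4.3.3; two-sided tests) at Benjamini-Hochberg adjusted p under 0.05 over all of them. A gene is given by its brightest probe. Single genes also had exact permutation tests. The fit was tested on simulated data. The number of arrays limits precision.

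The members, the gene lists and the rule for named genes were chosen with earlier results of these data known. The rule took all members, Lasp1, the 10 genes of most similar profile and, in most lists, up to 4 genes of highest mean intensity and up to 4 of smallest unadjusted p. Stmn2, Sox10, Sprr3, Sprr2g, Grp, Rims1, C2cd4a, Tiam1, Rnase2b, Wfdc12, Scgb2b7, Ppp1r14a, Gast and the genes named as never above background were chosen after their values were seen. List genes without a probe were left out. Alternatives were other normalizations, background correction, filters, an offset, variance models, array weights, blocks, the mean of a gene's probes and leaving out arrays. Whether replicate numbers pair the samples is not given by the labels, so the main fit treated the samples as unpaired.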

Additional observations from a re-analysis of the deposited data

How the results depend on the processing

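No contractile gene passed the threshold under any of 19 alternative fits (lowest limma adjusted p = 0.188, for Mylk with array weights, highest 1) or at an adjusted p of 0.10. Of 178 member values recomputed under 20 alternatives, 150 kept their sign and 28 turned; 15 alternatives turned none. Leaving out 1 array at a time gave log2 differences of -0.22 to 0.92 for Acta2, -0.45 to 1.16 for Actg2, -0.21 to 1.46 for Myh11, -0.0887 to 1.24 for Des, -0.18 to 0.63 for Tagln and -0.29 to 1.0 for Myl9, the lowest in each case without knockout replicate 1. The median of the members was 0.50 to 0.53 after the 3 other normalizations, 0.11 with array weights, 0.36 without wild type replicate 3 and 1.003 without knockout replicate 3. With array weights Tagln turned to -0.0194; wild type replicate 2 then had a weight of 38.8, against at most 1.60 elsewhere, and the estimation of the weights stopped before it converged, so values with array weights are unreliable.

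Without both knockout replicate 1 and wild type replicate 3 the median was -0.24, with Acta2 at -0.64, Actg2 -0.74, Myh11 -0.65, Des -0.19, Tagln -0.24, Smtn -0.18, Myl9 -0.62, Mylk -0.0498 and Tpm2 -0.0723. Over all probes the median of that fit was -0.03, and dropping these arrays by itself lowers the members' differences. In fits added after seeing the data that leave out knockout replicate 1, quantile normalization gave Acta2 -0.40, Actg2 -0.56, Myh11 -0.28, Des -0.12, Tagln -0.20 and Myl9 -0.32, while Smtn, Mylk and Tpm2 stayed above 0 (0.0199, 0.0424 and 0.067). Normexp with quantile normalization gave -0.40, -0.65, -0.33, -0.20, -0.43 and -0.42 for the same genes in the same order, with a median of -0.33 and Smtn, Mylk and Tpm2 again above 0. The causes were not tested.

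Over all probes 2 passed with 6 arrays, 0 with the stricter filter, 0 with the replicate block, 1816 with array weights and 34 without both arrays. Leaving out 1 array gave 0 to 3, and an adjusted p of 0.10 gave 3. Correlations of deviations from group means for same-numbered samples were 0.04, -0.30 and 0.53, which cannot show whether those samples were paired. With the replicate block the members' median stayed at 0.67. Cnn1 lies too near background for a difference to be seen.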

Other observations

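On knockout replicate 1, 160 tested probes read at least 2-fold above the highest of the other 5 arrays, and 9 of them belong to 8 contractile genes. The filter on dim probes used that array too, so it could admit probes bright there alone. Of the 160, 128 were also raised on wild type replicate 2 (at least 1.5-fold over the median of the remaining 4 arrays), with squamous genes such as Krt13 and Sprr3 among them. The other 32 included all 9 contractile probes. These 32 were of mixed kinds. Beside muscle genes they held the squamous-family gene Sprr2g (3348 on knockout replicate 1) and Wfdc12, Rnase2b, C2cd4a, Scgb2b7, Inmt and Tiam1. On wild type replicate 2, Wfdc12 and Rnase2b lay just under the 1.5-fold cut (1.47-fold each), and C2cd4a and Tiam1 were at 1.31-fold. They also held Grp, the gastrin-releasing peptide of enteric neurons, at 2277, 778 and 858 in the knockout, against 788, 879 and 955 in wild type mucosa. The same set held Rims1, a protein of presynaptic release sites, at 2564, 1015 and 1082 in the knockout, against 1102, 1079 and 1162 in wild type mucosa. Grp and Vip were above the brightest Y-linked probe on that array alone, while Rims1 was above it on wild type replicate 1 too. Grp, like Vip, passed the filter on dim probes only through knockout replicate 1, since it read below 991 on every other array. These genes were picked after their values were seen.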
